A study of Mus musculus with 4 samples.

Results

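The proteasome is the protease complex that degrades ubiquitin-tagged proteins, and its subunits, activators, chaperones and inhibitor were examined here in mouse thymus. Members were all probes of the bead table whose gene name begins with PSMA, PSMB, PSMC, PSMD, PSME, PSMF or PSMG and a digit. That rule found 78 of 45281 probes, for 43 of 19579 named genes. One of the 43, Psmc3ip, matches by its letters alone, since its product is a meiotic recombination factor that binds Psmc3, and the remaining 42 are proteasome genes. Psmd6, Psma8, Psmg1, Psmg2 and Psmg3 stand in the table under older names, so they are described apart from the members.

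RNA of whole thymus was read from 4 C57BL/6 mouse samples, 2 of a line with a miR-181d transgene (named Tg-8 in the design text) and 2 of a miR-181d knockin line, 1 Illumina MouseWG-6 v2.0 bead array per sample. The sources used here state neither the promoter of the transgene, nor the way the knockin allele was made, nor the ages. No wild-type sample was analysed here. Both groups therefore carry an engineered miR-181d allele, and each value places the 2 lines against each other. Nothing states that samples of a group came from separate mice, so p-values measure only the spread between these samples. For the transgenic pair that spread may be technical. The knockin samples differ in sex-linked transcripts (below), so they were not from the same animal, and their spread includes that difference.

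The core particle is a barrel of 4 stacked rings, with alpha subunits outside and beta subunits inside. In most cells the proteolytic sites are Psmb5 (chymotrypsin-like), Psmb6 (caspase-like) and Psmb7 (trypsin-like). Under interferon-gamma, and in many haematopoietic cells, Psmb8, Psmb9 and Psmb10 take their places in the immunoproteasome, a form that favours peptides fit for MHC class I. The regulatory particle (ATPases Psmc1 to Psmc6 and most Psmd genes) binds and unfolds the substrate, and the Psme activators open the barrel in its place. In the thymus, peptides made by proteasomes and shown on MHC class I take part in the selection of T cells.

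The sequences that bear on the comparison are the microRNA whose gene was engineered in both lines, itself not measured here, and the starts of the genes for the exchangeable chymotrypsin-like subunits and for an interferon-inducible activator. All come from RefSeq for build GRCm38.p6. The mature strand of the manipulated microRNA lies on chr8:84178759-84178781, minus strand, and its seed, bases 2 to 8, is in capitals. All 4 members of the miR-181 family compared (a, b, c and d, 5p arms) share that seed.
mmu-miR-181d-5p: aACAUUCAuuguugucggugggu

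Promoter windows of 300 bases, from 250 before to 50 after the gene start, were found for 36 of the 42 proteasome genes (39 windows). They were searched on both strands for GAAA repeated after a gap of 2 bases, the core of the interferon-stimulated response element, for TTCNNNGAA, the gamma-activated sequence bound by STAT factors, and for TGACNNNGC, the core of the antioxidant response element that NRF1 and NRF2 bind. These motifs are not contained in each other. Matches are in capitals. The Psmb5 window (chr14:54617946-54618245, minus strand) holds TGACNNNGC, the Psmb8 window (chr17:34197945-34198244, plus strand) holds TTCNNNGAA, and the Psme1 window (chr14:55578244-55578543, plus strand) holds the interferon-stimulated core on its reverse strand.
Psmb5: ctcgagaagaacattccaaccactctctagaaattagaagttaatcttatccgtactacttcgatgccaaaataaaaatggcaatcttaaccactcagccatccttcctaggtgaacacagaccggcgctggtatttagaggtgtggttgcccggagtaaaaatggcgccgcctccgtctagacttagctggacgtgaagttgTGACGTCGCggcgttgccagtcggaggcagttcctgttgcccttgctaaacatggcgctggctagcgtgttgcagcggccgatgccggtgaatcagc
Psmb8: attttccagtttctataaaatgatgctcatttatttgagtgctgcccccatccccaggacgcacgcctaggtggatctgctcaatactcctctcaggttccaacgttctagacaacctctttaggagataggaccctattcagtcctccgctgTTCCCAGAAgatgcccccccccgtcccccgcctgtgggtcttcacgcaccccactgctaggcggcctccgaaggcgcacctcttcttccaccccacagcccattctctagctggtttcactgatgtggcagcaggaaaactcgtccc
Psme1: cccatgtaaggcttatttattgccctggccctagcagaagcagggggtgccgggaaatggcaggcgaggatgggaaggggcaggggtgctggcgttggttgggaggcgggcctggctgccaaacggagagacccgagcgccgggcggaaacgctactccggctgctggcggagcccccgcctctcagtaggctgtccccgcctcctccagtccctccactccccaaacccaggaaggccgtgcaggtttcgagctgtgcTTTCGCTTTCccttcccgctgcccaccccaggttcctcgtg

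The interferon-stimulated core occurred in 4 of the 39 windows (10.3%), those of Psmb3, Psmd4, Psmd9 and Psme1, against 3.44% of all 32851 windows. TTCNNNGAA occurred in 2 (5.13%), of Psmb8 and Psmd2, against 8.30%. TGACNNNGC occurred in 6 (15.4%), of Psmb5, Psmb6, Psmc6, Psmd12, Psmd9 and Psme4, against 12.4%. A match describes letters in a window and does not show a bound site.

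Median signal per array was 140 to 146, and between 41.0% and 42.7% of all probes exceeded the background limit, which was 149 to 155 by array. Over the 9056 brightest probes (a correlation across probes, which are no independent replicates) arrays correlated pairwise at r = 0.973 to 0.985, and at 0.982 within the transgenic and 0.983 within the knockin pair. Knockin replicate 2 read Xist at 129.5 against 4365.6 to 4569.8 on the other 3 arrays and the Y-linked Ddx3y at 3519.3 against 484.4 to 553.7, the pattern of a male among females. The tissue label was checked on 8 genes of double-positive thymocytes and 8 of cortical epithelium. All 8 of the first and 6 of the second, among them Prss16 and Ccl25, were above background on every array, while Foxn1 and Dll4 were on none. Because the tissue is a whole organ, fewer cells of a type and less RNA per cell cannot be told apart.

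Most proteasome genes were read above background in both lines, and none of the 78 probes differed between them past the threshold. Of the 43 member genes, 39 were above background on all 4 arrays with their brightest probe, beside 9823 of all 19579 genes. The brightest probe stands for the gene from here on. The brightest probes of Psma1, Psma6, Psmc6 and Psmd3 were above it on none. By probe, 62 of 78 were above background on every array, 2 on some and 14 on none. With limma, 0 of 78 probes had a Benjamini-Hochberg adjusted p under 0.05 (lowest 0.719), beside 36 of 45281 probes of the table (0.0795%). At an unadjusted p under 0.05 there were 3 member probes, against 4.63% of all probes.

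The sizes were small as well as uncalled, and near those of all genes. Differences are log2 normalised intensity, transgenic minus knockin, so that 0 means equal intensity. Over the 43 genes they ran from -0.22 (Psmd11) to 0.30 (Psmd2), with a median of 0.047 against 0.001 over all 19579 genes. Of the 43, 29 had a value above 0 (67.4%, against 50.4% of all genes) and 14 below 0. The 95% limma interval stayed inside a 1.5-fold difference for 42 of 43 genes, the exception being Psmd2, beside 18791 of all 19579 genes. The median size regardless of sign was 0.082, against 0.083 over all genes. Both transgenic arrays lay on one side of both knockin arrays in 9 of the 43 genes (20.9%), against 31.8% of all genes. By probe this held for 21 of 78 (26.9%), against 32.7% of all probes. In 4 of the 43 (9.30%) the genotype difference exceeded the gap between arrays of either genotype, against 20.7% of all genes.

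**Figure D1:**
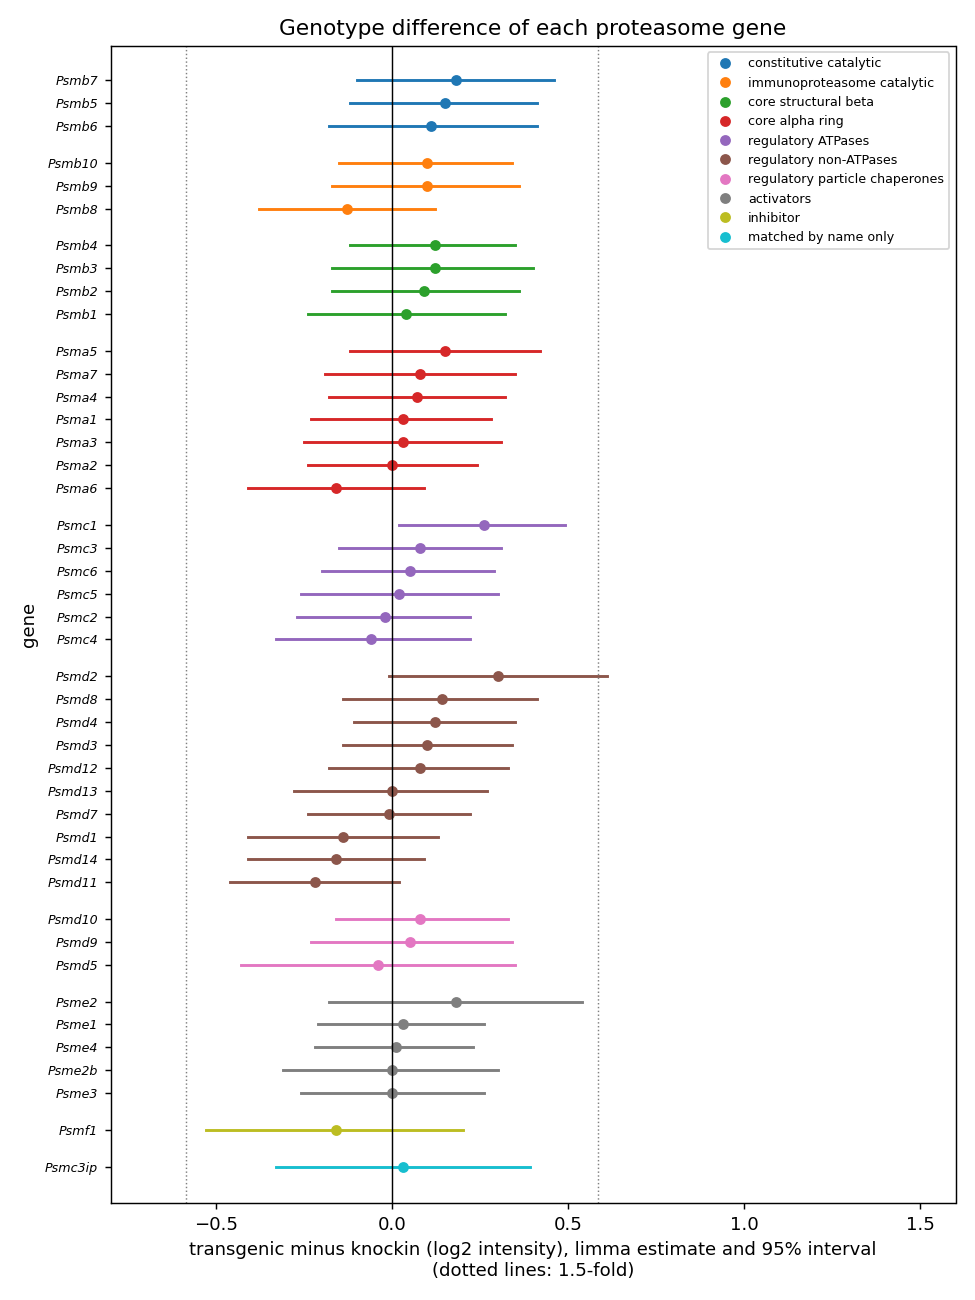
Transgenic minus knockin difference (log2 intensity, limma estimate as a point, 95% interval as a line) of each of the 43 genes by its brightest probe, coloured by role, with dotted lines at 1.5-fold. The Psmd2 interval alone crosses a dotted line, and all intervals but that of Psmc1 include 0.

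The constitutive catalytic subunits had values slightly above 0, and none passed. Psmb5 read 9.91 and 10.04 (log2 normalised intensity) in the transgenic samples and 9.95 and 9.70 in the knockin samples. The groups overlapped, with knockin replicate 2 lowest, and the difference was 0.15 (SE 0.118, adjusted p = 1.00 by limma, n = 2 per group). Psmb6 read 12.41 and 12.69 against 12.57 and 12.31, a difference of 0.11 (95% interval -0.18 to 0.41). Psmb7 read 12.64 and 12.89 against 12.70 and 12.48, a difference of 0.18 (95% interval -0.10 to 0.46). In all 3 genes transgenic replicate 2 was the highest array and knockin replicate 2 the lowest.

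Psmb7 was read by 4 probes, all above background on every array, and their values differed. Its dimmest probe read 10.48 and 10.69 in transgenic against 10.26 and 10.09 in knockin samples, without overlap. That difference of 0.41 (SE 0.117) had the lowest unadjusted p of all 78 probes (0.00636) and missed the threshold after limma's adjustment (adjusted p = 0.719). The other Psmb7 probes had differences of 0.18, 0.03 and -0.01.

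The immunoproteasome subunits split by sign and did not pass either. Psmb8 read 13.12 and 12.99 in the transgenic samples and 13.11 and 13.27 in the knockin samples. Knockin replicate 2 was highest and transgenic replicate 2 lowest, and the difference was -0.13 (95% interval -0.38 to 0.12). Its second probe, above background throughout, had -0.05 and, before rounding, no overlap (9.57 and 9.63 against 9.63 and 9.66). Psmb9 read 11.64 and 11.73 against 11.46 and 11.72, with knockin replicate 1 lowest and a difference of 0.10 (95% interval -0.17 to 0.36). Psmb10 read 11.97 and 12.16 against 11.97 and 11.96, a difference of 0.10 (95% interval -0.15 to 0.34), and its second probe had 0.14. The scanner signals behind Psmb8, before any normalisation, were 9063.7 and 7502.7 against 8788.8 and 10720.4.

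**Figure D2:**
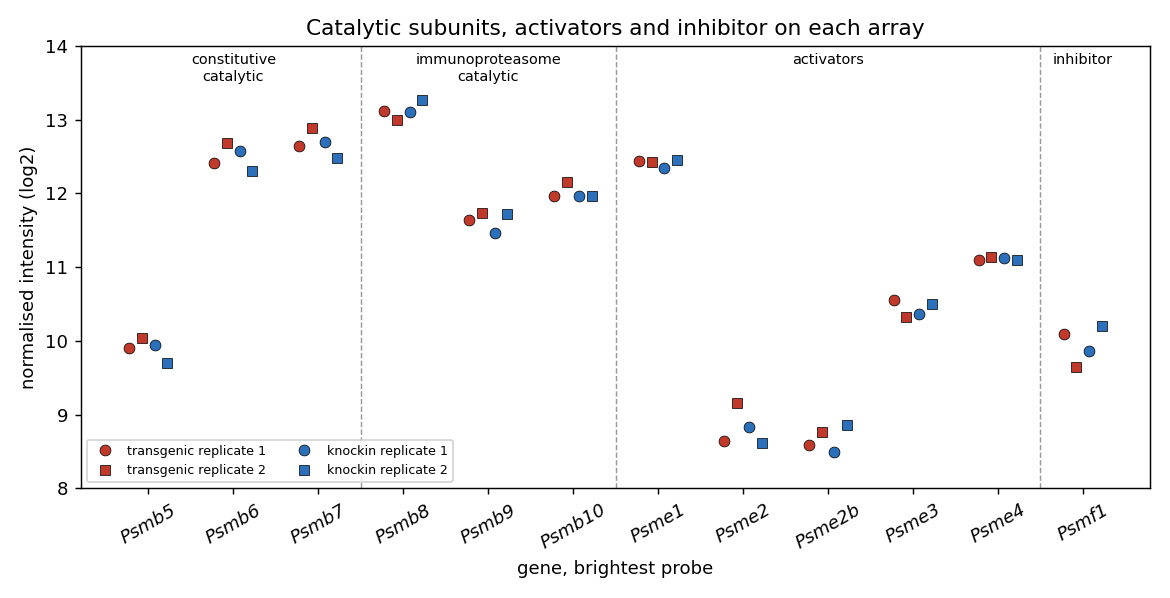
Normalised log2 intensity of the brightest probe of 12 genes on each array, red for transgenic and blue for knockin, circles for replicate 1 and squares for replicate 2; heights of different genes are not comparable, since each probe binds differently. Within every gene the red and blue points overlap, and the red square is on top in Psmb5, Psmb6, Psmb7, Psmb9, Psmb10, Psme2 and Psme4 while the blue square is on top in Psmb8, Psme1, Psme2b and Psmf1.

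The balance between both kinds of catalytic subunit was followed as a within-array log2 ratio, the mean of Psmb8, Psmb9 and Psmb10 minus the mean of Psmb5, Psmb6 and Psmb7, centred on its mean over the arrays. It was 0.02 and -0.15 in transgenic samples (mean -0.06 ± 0.12, SD, n = 2) and -0.13 and 0.25 in knockin samples (mean 0.06 ± 0.27, SD, n = 2). The genotype difference was thus -0.13, below the spread between the knockin replicates. One array, knockin replicate 2, stood above the other 3. Without it the difference was 0.063, so the sign rests on that array. By exchange pair, Psmb8 over Psmb5 was -0.01 and -0.27 against -0.06 and 0.34, Psmb9 over Psmb6 was 0.09 and -0.10 against -0.25 and 0.27, and Psmb10 over Psmb7 was -0.01 and -0.07 against -0.06 and 0.14. Knockin replicate 2 had the highest ratio in all 3 pairs, and the groups overlapped in each.

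**Figure D3:**
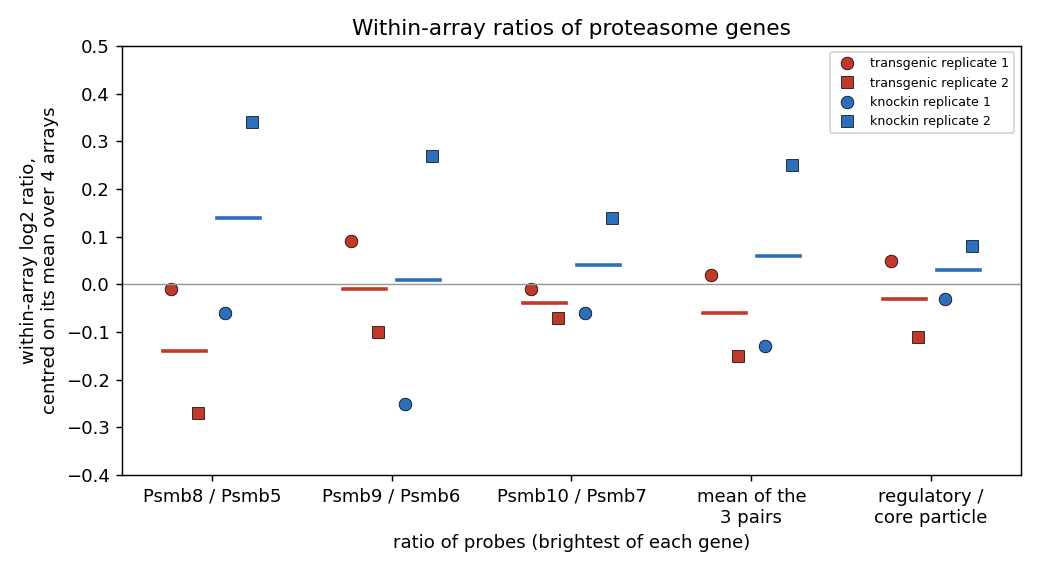
Within-array log2 ratios of the brightest probes, each centred on its mean over the 4 arrays, with points for arrays (red transgenic, blue knockin, circle replicate 1, square replicate 2) and bars for group means. The blue square is the highest point in all 5 columns (0.34, 0.27, 0.14, 0.25 and 0.08), and the other knockin array lies among the transgenic ones or below them.

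Markers of other cell types were summed over the arrays beside Psmb8. The summed normalised intensity of 7 measured dendritic cell and MHC class II genes was 22733 and 18650 in transgenic and 19827 and 25960 in knockin samples. That order of arrays is the order of the brightest Psmb8 probe, and also that of total array signal (23493036 and 21409833 against 22397387 and 24707566). The second Psmb8 probe had another order (9.57 and 9.63 against 9.63 and 9.66). The brightest gene of the list, H2-Ab1, read 13.63 and 13.27 against 13.43 and 13.77, while H2-Aa read 11.37 and 11.54 against 11.40 and 11.69. In that list H2-Aa, H2-Ab1, H2-Eb1 and Ciita were above background on every array, and the dendritic cell genes Flt3, Xcr1 and Itgax on none. For 8 macrophage genes, all above background, the sum was 7036 and 7617 against 7019 and 8387, in another order. Sums for double-positive thymocyte, mature T cell, cortical and medullary epithelium, B cell, fibroblast and erythroid genes did not follow the Psmb8 order either. Granulocyte genes were the marker list with calls: 6 of 6 had values below 0 (median -1.192), 3 of them passed (S100a9 with a limma adjusted p of 0.00218), and the sum was 3915 and 3306 against 8476 and 9773. The part of these cells, or of total signal, in the proteasome values was not tested. Knockin replicate 2 is also the array with the male pattern, which cannot be told apart from its other features.

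The structural beta subunits and the alpha ring of the core particle gave values near 0. The 4 structural beta genes ran from 0.04 to 0.12, and Psmb4, with signals of 13958.8 and 14396.3 against 12980.8 and 14578.9, had no overlap after normalisation and a difference of 0.12 (95% interval -0.12 to 0.35). Psmb3 had 0.12 as well (95% interval -0.17 to 0.40). Of the 7 alpha genes found by the rule, 5 were above background and ran from 0.00 (Psma2) to 0.15 (Psma5, 95% interval -0.12 to 0.42). Psma6 read at background, so its value of -0.16 has no level behind it. Psma7 was read by a pair of probes above background, with 0.08 and -0.003. Psma8, the alpha subunit known from germ cells, was above background on no array.

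Across the 15 core-particle genes above background, 13 had a value above 0, with a median of 0.096 (range -0.13 to 0.18). Of all genes above background 50.1% had a value above 0. This leaning depended on scaling and on single arrays. With median scaling 10 of 15 were above 0 (median 0.037). Without transgenic replicate 2 there were 7 (median -0.023) and without knockin replicate 2 there were 9 (median 0.026). Leaving out transgenic replicate 1 gave 14 (median 0.192), and leaving out knockin replicate 1 gave 13 (median 0.113). For the constitutive catalytic subunits the median of 0.148 was 0.056 without transgenic replicate 2 and 0.026 without knockin replicate 2, each with 1 of 3 genes below 0. It was 0.253 without transgenic replicate 1 and 0.270 without knockin replicate 1, each with all 3 genes above 0.

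The ATPases of the regulatory particle, which unfold the substrate, included the only gene with an unadjusted p under 0.05, against 5.33% of all genes. Psmc1 read 10.69 and 10.83 in transgenic and 10.54 and 10.47 in knockin samples. The groups did not overlap, and the difference of 0.26 (SE 0.106, unadjusted p = 0.0370) had a limma adjusted p of 1.00. Psmc3 also had no overlap, with 11.42 and 11.46 against 11.39 and 11.33 and a difference of 0.08. Psmc4 read 12.45 and 12.24 against 12.29 and 12.52, with the first transgenic and the second knockin array high, and a difference of -0.06. Psmc2, Psmc5 and Psmc6 had -0.02, 0.02 and 0.05, Psmc6 at background.

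The non-ATPase subunits of the regulatory particle spread most. Psmd2, a large scaffold subunit of its base, read 11.18 and 10.88 in transgenic and 10.58 and 10.88 in knockin samples. It had the largest positive value of the 43 genes, 0.30 (SE 0.139, unadjusted p = 0.0563, limma adjusted p = 1.00). A second Psmd2 probe above background had -0.13, so its probes disagreed in sign. The third, above background on the knockin arrays only, had -0.16. With the mean of all Psmd2 probes the difference was 0.004. Psmd11, a lid subunit, read 8.28 and 8.26 against 8.41 and 8.57, a difference of -0.22 (95% interval -0.46 to 0.02). Psmd14, the deubiquitinase that strips ubiquitin from substrates, had -0.16 and -0.20 on its probes, both without overlap (9.25 and 9.44 against 9.54 and 9.48 on the brighter, and 8.82 and 8.94 against 9.05 and 9.11 on the dimmer).

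Psmd7, the partner of Psmd14, had -0.01 on its brightest probe. On its dimmest it had -0.29, without overlap (SE 0.106, unadjusted p = 0.0209, limma adjusted p = 0.994). Psmd4, a ubiquitin receptor, read 12.97 and 12.90 against 12.80 and 12.83, without overlap and with a difference of 0.12. Psmd1, Psmd12 and Psmd13 had -0.14, 0.08 and 0.00, and Psmd8 had 0.14. Psmd6, found by its older name, had -0.09. Over the 14 regulatory genes above background, 7 were above 0 and 7 below, with a median of 0.009.

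Assembly chaperones of the regulatory particle, Psmd5, Psmd9 and Psmd10, had values of -0.04, 0.05 and 0.08. Psmd5 varied within a genotype, with 8.08 and 8.67 in transgenic and 8.52 and 8.32 in knockin samples, which gave a 95% interval of -0.43 to 0.35. Psmd10 is X-linked, and its 3 probes, all above background, had 0.08, 0.12 and 0.02. The chaperones that pair alpha subunits, Psmg1, Psmg2 and Psmg3, had values of 0.05, 0.03 and 0.11 under their older names.

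Among the activators, Psme1 and Psme2 form the interferon-inducible cap PA28, Psme3 forms its nuclear relative and Psme4 encodes PA200. Psme1 read 12.44 and 12.42 against 12.34 and 12.46, a difference of 0.03 (95% interval -0.21 to 0.26). Its second probe read 11.79 and 11.63 against 11.33 and 11.60, without overlap and with a difference of 0.25 (unadjusted p = 0.0726, limma adjusted p = 1.00). Psme2 read 8.65 and 9.16 against 8.83 and 8.62, with transgenic replicate 2 high and a 95% interval of -0.18 to 0.54.

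Psme2b is a near-identical copy of Psme2, so the probes of both may share signal. It read 8.59 and 8.76 against 8.49 and 8.86. Psme3 read 10.55 and 10.32 against 10.37 and 10.50, and Psme4 read 11.10 and 11.14 against 11.12 and 11.10, the closest agreement of the 5. Psme4 had a difference of 0.01 (95% interval -0.22 to 0.23) and -0.09 on its second probe.

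Psmf1, the inhibitor PI31, varied more within a genotype than between them. Its brightest probe read 10.09 and 9.64 in transgenic and 9.86 and 10.20 in knockin samples, from signals of 1227.0, 769.4, 941.7 and 1382.5. The difference was -0.16 (SE 0.164, 95% interval -0.53 to 0.20). A dimmer probe above background had 0.16, opposite in sign and without overlap, and the third was at background.

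Where several probes of a gene were above background, their signs were compared, without a count over all genes to set beside it. There were 19 such genes among the 27 with more than 1 probe, and 10 of the 19 had values on both sides of 0 before rounding, with no minimum size. These were Psma7, Psmb7, Psmc2, Psmc4, Psmd1, Psmd2, Psmd9, Psmd12, Psme4 and Psmf1. Psma7 enters by a value of -0.003 on its dimmer probe. Psmc2 had -0.02 and 0.07, Psmc4 -0.06 and 0.02, Psmd1 -0.14 and 0.07, Psmd12 0.08 and -0.16, and Psmd9 0.05 and -0.04. None of the probes of these 10 genes passed the threshold.

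Arrays of the same genotype also differed from each other. With quantile normalization the median gaps were wider in the core genes than in the regulatory genes, a contrast that was not tested. For the 39 genes above background, the median of transgenic replicate 2 minus replicate 1 was 0.14, and of knockin replicate 1 minus replicate 2 it was 0.05. Among the 15 core genes 14 were higher in transgenic replicate 2 than in replicate 1 (median gap 0.20), against 48.5% of all genes above background. Of the 15, 11 were higher in knockin replicate 1 than in replicate 2 (median gap 0.09), against 49.2%. The core genes outside that second group were Psmb8, Psmb9, Psmb4 and Psma5. For the 14 regulatory genes the counts were 8 and 7, with median gaps of 0.04 and 0.01.

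These gaps depend on scaling. For the ratio of both particles, taken within an array, the constant shift of median scaling cancels. Similar ratios under both scalings are thus partly built in. With median scaling the core medians were 0.12 and -0.03 and the regulatory medians -0.09 and -0.15, with -0.16 and -0.16 over all 9823 genes above background. The within-array log2 ratio of regulatory over core genes, centred, was 0.05 and -0.11 in transgenic and -0.03 and 0.08 in knockin samples. With median scaling it was 0.07 and -0.13 against -0.05 and 0.10. The same arrays, transgenic replicate 1 and knockin replicate 2, also had the highest total signal (23493036 and 24707566, against 21409833 and 22397387). The part of total signal in the ratio was not tested.

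**Figure D4:**
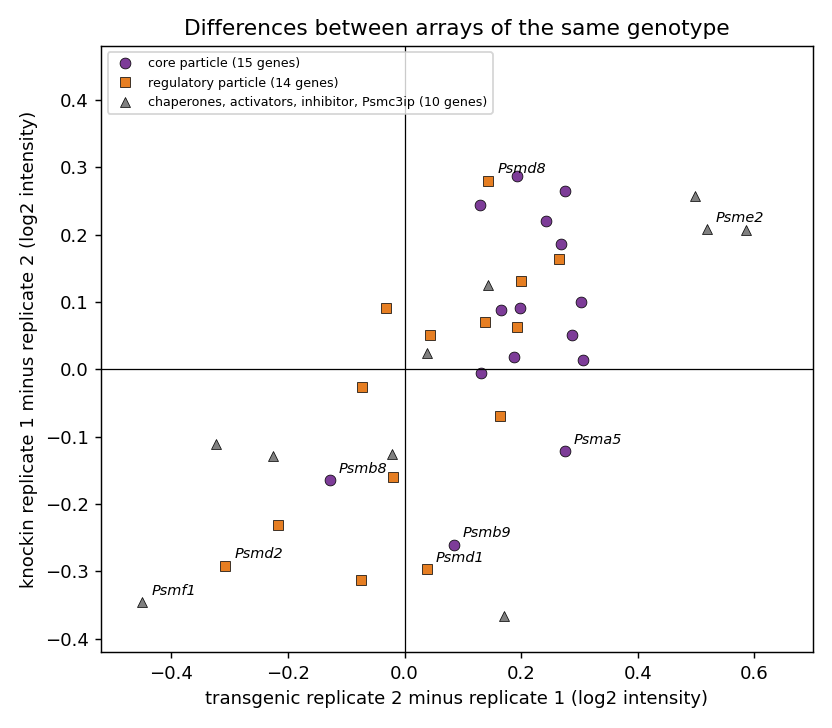
Difference between the arrays of each genotype for the 39 genes above background (log2 intensity, transgenic replicate 2 minus 1 on the x axis, knockin replicate 1 minus 2 on the y axis), purple circles for core, orange squares for regulatory and grey triangles for other genes. Core genes gather right of the vertical line (14 of 15), while regulatory genes lie on both sides (8 of 14) and Psmf1 is at the lower left.

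Partners of the proteasome outside the family name were also without a call. Of 21 measured partners 0 passed by limma, and 2 had an unadjusted p under 0.05, against 5.33% of all genes. By sign 5 had values above 0 and 16 below (median -0.083), where 50.4% of all genes were above 0. Zfand2a, a stress-induced proteasome-associated protein, read 9.54 and 9.65 in transgenic and 9.85 and 9.89 in knockin samples, a difference of -0.27 (unadjusted p = 0.0252, limma adjusted p = 1.00). Pithd1, which carries a proteasome-interacting thioredoxin domain, had -0.25 (unadjusted p = 0.0419, limma adjusted p = 1.00). Nfe2l2, which encodes NRF2, an inducer of proteasome genes, had -0.24 (95% interval -0.49 to 0.01). In all 3 genes, named for the lowest p-values of the list, the groups did not overlap, as in 31.8% of all genes.

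The MHC class I peptide pathway and its interferon regulators, which share induction with the immunoproteasome, gave 0 calls among 21 genes by limma. At an unadjusted p under 0.05 there were 2, against 5.33% of all genes. By sign 10 were above 0 and 11 below. Tap1, the peptide transporter gene that lies between Psmb9 and Psmb8 on chromosome 17, read 9.09 and 8.98 in transgenic and 8.50 and 8.81 in knockin samples. The groups did not overlap, and the difference of 0.38 (SE 0.124, unadjusted p = 0.0125) had a limma adjusted p of 0.883. Its neighbours Psmb9 and Psmb8 had 0.10 and -0.13. The kinase Jak1 had 0.27 (unadjusted p = 0.0363, limma adjusted p = 1.00). Nlrc5, the transactivator of MHC class I genes, read 9.46 and 9.26 against 8.60 and 9.35, with knockin replicate 1 low and a difference of 0.39 (95% interval -0.07 to 0.85).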

How the data were processed

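Illumina bead arrays read whole-thymus RNA of 2 transgenic and 2 knockin samples, grouped by sample title and matched to columns by array name. Per the file headers, the authors deposited bead signal intensity from GenomeStudio 1.9.0 with normalization and error model set to none. It gives no detection p-values or control probes. The authors' deposited value table holds processed intensity under other probe identifiers, and its normalization is not given in the sources used here, so only counts over all its probes were taken.

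Here intensity was corrected by normexp with an offset of 50, log2-transformed and quantile-normalised. limma 3.58.1 in R 4.3.3 (lmFit, eBayes) compared 2 with 2 arrays over all 45281 probes, two-sided, Benjamini-Hochberg adjusted, threshold 0.05. The offset compresses dim probes, quantile normalization removes shared shifts, and the number of arrays limits precision. The quantile normalization and the fit were tested on simulated data with independent noise, without the normexp step. A probe was above background where its signal exceeded the mode of its array by 3 SDs of the sub-modal values. The brightest probe stands for a gene, named through RefSeq symbols (22864 probes) or synonyms (11917).

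The members and lists were chosen with earlier results of these data known. All catalytic, activator and inhibitor members are described. Of other roles, the lowest p-values and probes that disagree were named, and the other members were added after their values were seen. Same-numbered samples deviated in opposite directions (r = -0.40 over 9056 probes), so the numbers were not taken as pairs. Alternatives changed background correction, scaling, variance model, block, filter, arrays and probes per gene.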

Additional observations from a re-analysis of the deposited data

How the results depend on the processing

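No proteasome probe passed under the 12 alternatives that gave the members a value. These were cyclic loess, median scaling, the smaller offset, uncorrected signals, a variance trend with robust priors, the replicate block, the crossed pairing, the filter on dim probes and each array left out, and the lowest adjusted p was 0.0700 (crossed pairing). Over all probes the count of 36 became 3 without background correction, 70 with an offset of 16, 2 with median scaling, 112 with the variance trend, and 61 with the filter on dim probes. It was 0 by limma on the authors' deposited table, where 3299 probes had an unadjusted p under 0.05. It ranged from 24 to 89 without single arrays. With the replicate number as a block 38 probes passed, 0 of them members (2 members at an unadjusted p under 0.05). With the crossed pairing, chosen after seeing the data, 364 passed, again 0 members (5 at an unadjusted p under 0.05). The members' median of 0.047 ranged from 0.004 to 0.138 without single arrays, the highest without transgenic replicate 1, and was 0.008 with median scaling, where the median of all genes was -0.014. The difference in catalytic balance ranged from -0.316 (without knockin replicate 1) to 0.063 (without knockin replicate 2). It stayed between -0.128 and -0.095 under the alternatives that kept all arrays. A constant shift per array, as in median scaling, cancels from this balance, so part of that stability is built in. Of 362 values of the 28 genes named by rule, 0 passed and 35 had another sign than the reported value, 11 of them with a size of 0.1 or more on either side. The causes were not tested. neqc could not be run without detection p-values or control probes, nor the authors' table for members, since its identifiers are not paired with these probes.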
